A study of Mus musculus with 3 samples.

Results

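Shh, its neighbours Rnf32 and Lmbr1, and Hand2 are the 4 genes described here, out of 21887 protein-coding genes on the primary mouse chromosomes. They were taken by name, and their sites were taken by position: every Tbx4 or Hoxc10 summit inside a gene, or between it and the next protein-coding gene and at most 1 Mb away, together with all summits from Shh through Rnf32 to the end of Lmbr1. By this rule 7 of 4780 Tbx4 summits and 2 of 1614 Hoxc10 summits were found, 9 of 6394 in all, and each of them lay in the domain of Hand2. The summits come from chromatin immunoprecipitation with sequencing (ChIP-seq) in hindlimb buds of wild type CD1 embryos at stage e11.5, with a homemade antibody to Tbx4 and with an Abcam antibody to Hoxc10. The 2 groups share strain, genotype, stage and tissue and differ in the antibody. Another sample, Hoxc10 with a Santa Cruz antibody, was not analysed here. Each antibody is represented by 1 sample and 1 peak list, so no value below has a replicate error and no test between conditions was possible.

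Tbx4, a transcription factor with a T-box domain, marks the hindlimb, and Hoxc10 belongs to the posterior group of Hox proteins, which bind DNA through a homeodomain. Sonic hedgehog, encoded by Shh, is secreted from the posterior margin of the limb bud, where it sets the number and identity of digits. Its limb expression depends on a distant enhancer that lies in an intron of Lmbr1, on the far side of a long gene-poor stretch and of Rnf32, a gene for a RING finger protein. Hand2 encodes a basic helix-loop-helix factor of the posterior bud that activates Shh through that enhancer. Lmbr1 itself encodes a membrane protein and is best known as the host of the enhancer.

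No summit of either factor lay in any of the 4 genes or within 5 kb of them, and so none at their promoters. The promoter of Hand2 is shown because it is the start of the gene that held all 9 sites. The 250 bases before the annotated start, chr8:57320733-57320982 on the plus strand, come from RefSeq on GRCm38.p6, the same coordinates as mm10. Capitals mark TTTATT, a letter run of the posterior Hox type.
Hand2 promoter: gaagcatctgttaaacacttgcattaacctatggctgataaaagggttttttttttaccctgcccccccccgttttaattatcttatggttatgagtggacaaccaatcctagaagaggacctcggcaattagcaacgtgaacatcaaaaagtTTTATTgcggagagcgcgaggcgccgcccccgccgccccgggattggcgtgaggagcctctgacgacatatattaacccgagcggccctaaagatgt

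The same stretch holds the start region of Hand2os1, a long non-coding RNA (lncRNA) gene whose upper end lies 124 bp below the start of Hand2. The windows of Hand2, Lmbr1 and Rnf32, of 300 bases that run on to 50 bases after the start, were searched on both strands for the T-box letters GGTGTGA and their core GGTGT, and for the posterior Hox letters TTTATG, also with T for the last letter (TTTATT), and for TTTACG. That of Shh was not analysed here. The Hand2 window held TTTATT and none of the others, and 19.6% of all 32851 promoter windows hold TTTATT. The Lmbr1 window held TTTATG, which occurs in 11.9% of windows, and the Rnf32 window held none of the searched letters of these kinds. GGTGT was in none of the 3 windows, against 41.6% of all windows. The longer GGTGTGA, which contains GGTGT, occurs in 3.98% of windows and TTTACG in 3.03%. The E-box CAGATG, a sequence of the kind that basic helix-loop-helix factors bind, occurred in the Hand2 window, as in 17.2% of all windows, and in neither of the other 2. The looser CANNTG, which includes CAGATG, had 2 matches in the Hand2 window and 1 in the Rnf32 window, and occurs in 72.3% of all windows. Letters in a window are not evidence of a bound site. The nearest Tbx4 summit was 13.4 kb beyond the start of Hand2 and the nearest Hoxc10 summit 128.2 kb before it.

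Around Shh, the deposited lists held no site of either factor. The ground counted ran from the end of Rbm33, the gene next to Shh, to the start of Nom1, the gene beyond Lmbr1 (chromosome 5, 28419245 to 29434658, 1015 kb). It took in Shh itself (28456840 to 28467101), the 726 kb without protein-coding genes between Shh and Rnf32, Rnf32 (29192745 to 29227635) and the whole of Lmbr1 (29229802 to 29378421, 149 kb), including the intron known for the limb enhancer. In that ground there were 0 Tbx4 sites, 0 Hoxc10 sites and 0 co-bound pairs, meaning summits of both factors within 200 bp. At the mean rate of each list, 1.78 Tbx4 and 0.60 Hoxc10 sites per Mb between the outermost genes of the chromosomes, a stretch of this length would hold 1.80 Tbx4 and 0.61 Hoxc10 sites.

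An empty domain is the common state. Of all 21887 protein-coding genes, 81% had a site of neither factor in their domain, the gene and the ground to its neighbours. The domain of Shh, at 774 kb, is long, and long domains were less often empty: of the 1216 genes whose domains were at least as long, 39.1% had a site of neither factor, 56.7% had a Tbx4 site and 38.4% had a Hoxc10 site. The domains of Rnf32 and Lmbr1 measured 763 and 207 kb, and that of Rnf32 shares its long flank with Shh.

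**Figure D1:**
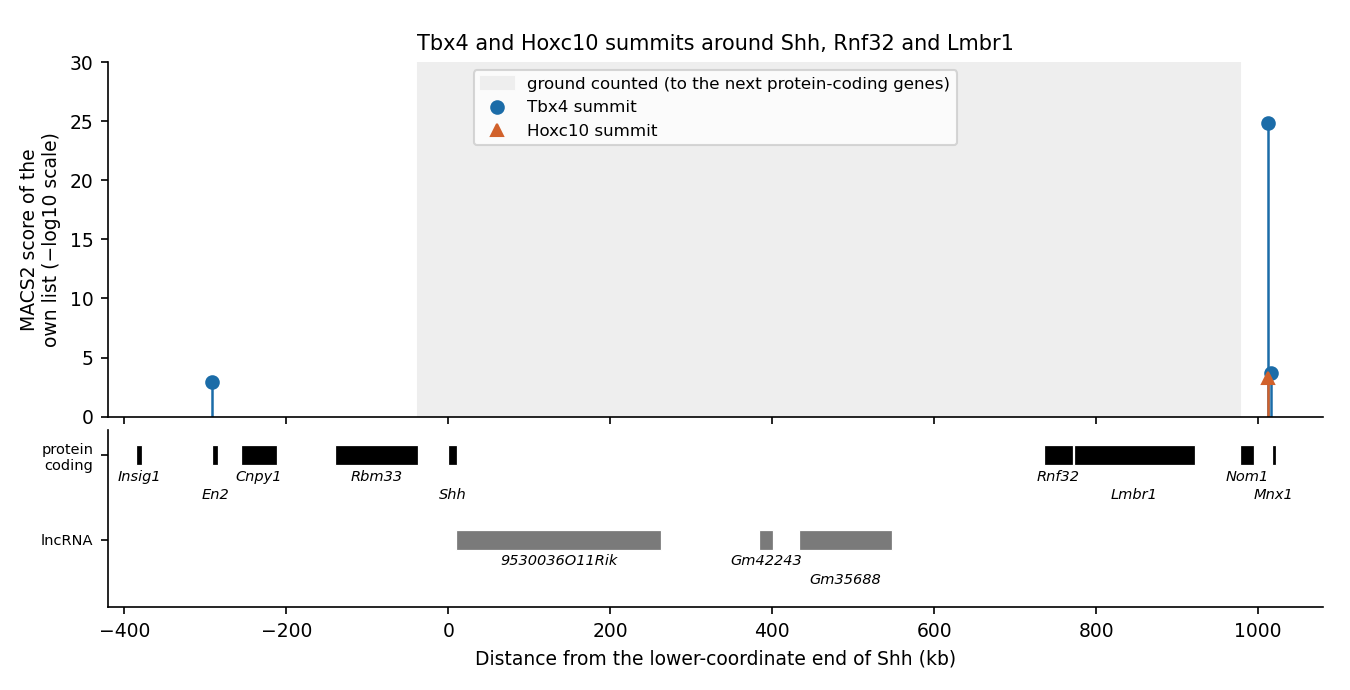
Summits of Tbx4 (circles) and Hoxc10 (triangles) by their score in their own list (y axis, −log10 scale) against distance from the lower-coordinate end of Shh in kb, with protein-coding genes in black and 3 of the lncRNA genes in grey. The shaded 1015 kb hold no summit, and the nearest ones are a low Tbx4 summit beside En2 and the Tbx4 and Hoxc10 summits between Nom1 and Mnx1.

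The closest sites stood on both sides of this ground. Below Shh, the next Tbx4 summit was at 28165534, 162 bp outside En2, which encodes an engrailed homeodomain factor, and had a score of 2.94, above 22.2% of the Tbx4 list. It was 291 kb from Shh, with En2, Cnpy1 and Rbm33 in between. Above Lmbr1, a Tbx4 summit at 29468506 scored 24.83, with 166 higher scores in the list, and a Hoxc10 summit at 29468383 scored 3.26, above 5.14% of its list. These 2 summits were 123 bp apart and so formed a co-bound pair, 90.1 kb beyond Lmbr1 for Tbx4 and 90.0 kb for Hoxc10. Another Tbx4 summit at 29472093 scored 3.67. All 3 lay between Nom1, which encodes a nucleolar protein, and Mnx1, a homeobox gene best known from motor neurons, and their nearest gene end was that of Mnx1, 1.73 to 5.44 kb away. They fall outside the domains of Shh and Lmbr1 because Nom1 stands between.

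From En2 to Mnx1 the Tbx4 list was empty for 1303 kb. Of the 4759 distances between neighbouring Tbx4 sites on the same chromosome, 483, or 10.1%, were at least as long, and the median was 199 kb. For Hoxc10 the empty stretch ran from a site inside Srpk2 at 23616811 to the site near Mnx1, 5.85 Mb, and 90 of 1593 distances, or 5.65%, were at least as long. The gap over Shh was therefore long but not rare in either list.

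The deposited lists are a selection, and the names of the peaks show how many were left out between neighbouring listed sites. Around Shh those stretches are wider than the ground counted, so the number left out at the genes themselves is unknown. MACS2 numbers its peaks along each chromosome, and the numbers rose with position on every chromosome in both lists. The Tbx4 sites beside En2 and near Mnx1 carry the numbers 29265 and 29304, so 38 numbered Tbx4 peaks lay between them and none of the 38 is listed. These 2 sites are neighbours in the list, so none of the numbers between them could be listed. Over the whole list 10.6% of the numbers up to 45103 are present, a share that cannot be set against those 38. The numbers were 29.2 per Mb in this stretch, against 16.8 per Mb overall. For Hoxc10, 4 numbers lie between the sites at Srpk2 and near Mnx1, over 5.85 Mb, which is 0.68 per Mb, against 1.5 per Mb overall. Where the unlisted peaks lie within these stretches and why they were not kept is not given in the files or labels. The count of 0 around Shh therefore describes the selected sites and not the whole set of peaks that was called, and read depth is unknown.

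Hand2 stood at the other end. Its domain, from the end of Fbxo8, a gene for an F-box protein, to the start of Scrg1 (chromosome 8, 56593940 to 57455881, 862 kb), held 7 Tbx4 and 2 Hoxc10 sites, or 8.12 and 2.32 per Mb. Of all genes, 0.516% (113 genes) had at least as many Tbx4 sites as Hand2 and 2.17% (474 genes) had at least as many Hoxc10 sites. Among the 1074 genes with domains at least as long, the shares were 6.89% and 18.3%. None of the 9 sites lay inside the Hand2 gene, which spans 57320983 to 57324517. By the counting rule none could lie inside another protein-coding gene, since the domain stops at its neighbours.

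**Figure D2:**
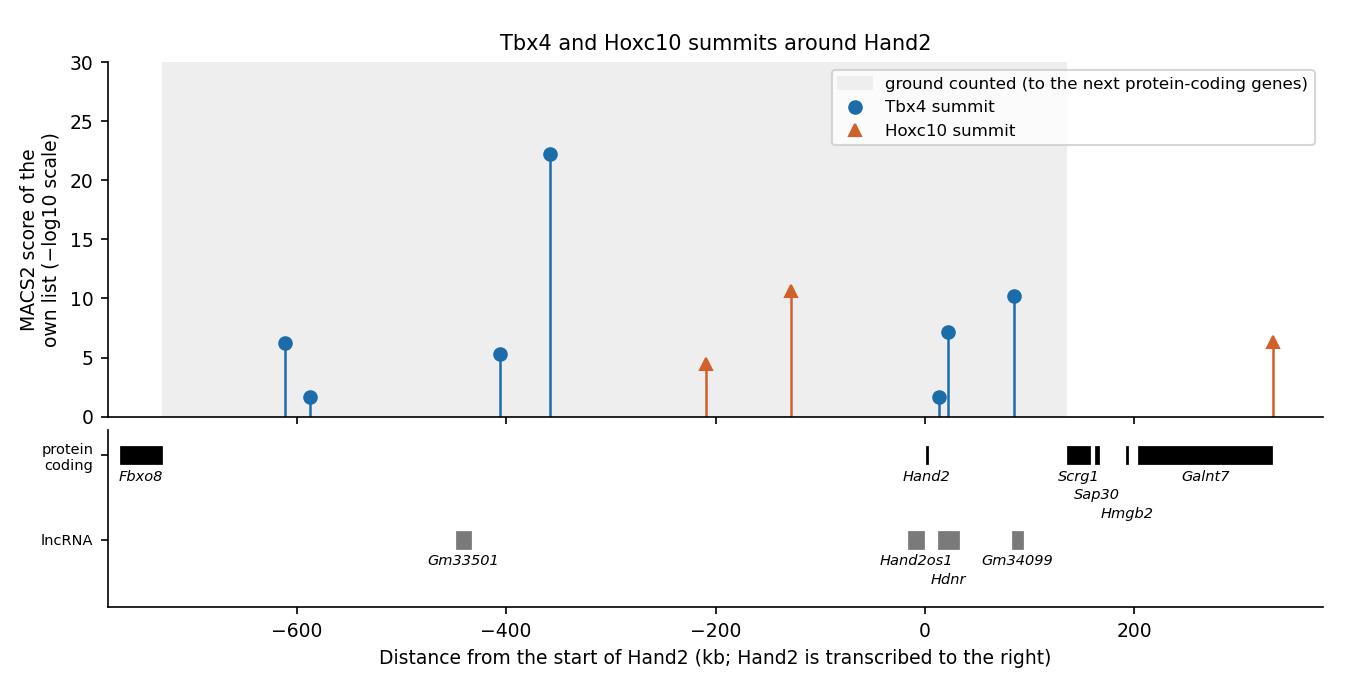
Summits of Tbx4 (circles) and Hoxc10 (triangles) by their score in their own list (y axis, −log10 scale) against distance from the start of Hand2 in kb, with protein-coding genes in black and 4 of the lncRNA genes in grey. In the shaded domain 4 Tbx4 and 2 Hoxc10 summits lie upstream and 3 Tbx4 summits downstream, and no summits of the 2 factors coincide.

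Upstream of Hand2, which is transcribed toward higher coordinates, 4 Tbx4 sites lay 358 to 611 kb from the gene. The strongest, at 56962701, scored 22.2 and exceeded 95.5% of the Tbx4 list, with 190 higher scores. Its nearest gene end of any protein-coding gene was that of Hand2, 358 kb away. The site at 56915534 scored 5.3, that at 56709590 scored 6.19, and that at 56733569 scored 1.63, close to the lowest score of the list, 1.34. These 3 were nearer to Fbxo8, at 116 to 322 kb, than to Hand2.

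Downstream, 3 Tbx4 sites stood closer to the gene, at 9.83, 18.2 and 81.0 kb from its end. Their scores increased with distance, from 1.63 at 57334350 and 7.14 at 57342743 to 10.21 at 57405548. All 3 lay inside annotated lncRNA genes, whereas 0 of the 4 upstream Tbx4 sites did. The 2 nearest lay inside Hdnr, the Handsdown lncRNA gene (57332435 to 57354580), the first of them also inside Gm34030, and the farthest inside Gm34099 (57403117 to 57415049). Over the whole list 13.6% of Tbx4 sites lay inside a lncRNA gene, and 19.7% of those outside protein-coding genes did. Annotated lncRNA genes are denser downstream. Gm34030, Hdnr and Gm34099 lie in the 131 kb below Scrg1, and only Gm33501 and Hand2os1 in the 727 kb upstream. The part of this in the contrast was not tested. The table gives gene ends but no exons, so exons and introns were not told apart. The farthest of the 3 was nearer to Scrg1, at 50.3 kb, than to Hand2.

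The 2 Hoxc10 sites were both upstream, between the distant Tbx4 group and the gene. The nearer, at 57192814 and 128 kb from Hand2, scored 10.67 and exceeded 65.2% of the Hoxc10 list. The farther, at 57111667 and 209 kb away, scored 4.43 and exceeded 16.9% of it. For both, Hand2 was the nearest protein-coding gene. Neither lay inside a lncRNA gene, against 13.8% of all Hoxc10 sites and 18.9% of those outside protein-coding genes. With a median score of 6.19, against 3.67 for the whole list, 5 of the 7 Tbx4 sites were at or above the list's median, as were 61.3% of the list. The median of the 2 Hoxc10 sites was 7.55, against 7.72 for that list.

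Tbx4 and Hoxc10 were present at Hand2 without a shared site. The smallest distance between a Tbx4 and a Hoxc10 summit in the domain was 141.5 kb, across the gene, and the next was 149.0 kb, between the strongest Tbx4 site and the farther Hoxc10 site. In the whole lists 32.1% of Hoxc10 sites and 10.9% of Tbx4 sites had a partner within 200 bp. Of the 1095 genes with sites of both factors, 53.1% had a co-bound pair in their domain. Of the 93 genes with at least as many sites of each factor as Hand2, 81.7% had one. These 93 include genes with more sites, such as Mycn with 14 Tbx4 and 4 Hoxc10 sites, so this is not a share at equal counts. Neighbouring genes share the sites between them, so these genes are not independent of each other. The co-bound pair nearest to any of the 4 genes was that near Mnx1.

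**Figure D3:**
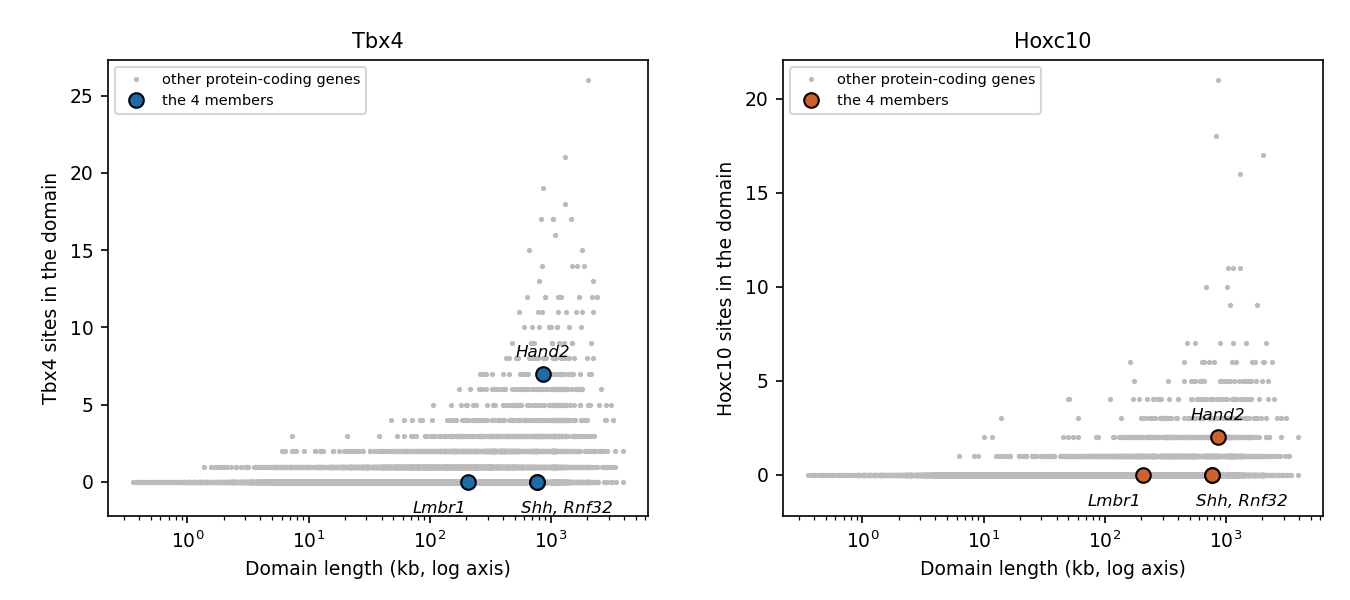
Number of Tbx4 sites (left) and Hoxc10 sites (right) in the domain of each of 21887 protein-coding genes (grey) against domain length in kb on a log axis, with Hand2, Shh, Rnf32 and Lmbr1 in colour. Hand2 holds 7 and 2 sites at 862 kb, while Shh and Rnf32, whose points overlap at 774 and 763 kb, and Lmbr1 hold 0 of each.

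The Tbx4 sites of Hand2 were also set apart on their chromosome. Going down, the next Tbx4 site was 2096 kb from the lowest of the 7, at 54613155, and 4.69% of the distances between neighbouring Tbx4 sites were as long. Going up, the next was 4.20 Mb from the highest, at 61607732 inside Palld, and 1.13% of the distances (54 of 4759) were as long. Those 2 outer sites are the nearest listed Tbx4 sites outside the domain of Hand2, 6.99 Mb apart. By that choice the 7 sites between them all lie in the domain, which makes up 12.3% of that length. This stretch holds 34 protein-coding genes. Besides Hand2, 3 of them had a Tbx4 site in their domains: Fbxo8 with 4 and Scrg1 with 3, through ground shared with Hand2, and Wdr17 with 1, the outer site at 54613155. Only genes that share ground with Hand2 or reach an outer site could hold one, so this count follows from the same choice. Fbxo8, Scrg1 and Wdr17 were named after their values were seen. Hoxc10 sites were less isolated: the next ones were at 56344117, 23.1 kb outside Hpgd, with a score of 15.53, and at 57653693, 638 bp outside Galnt7, with a score of 6.34.

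The running numbers again show unlisted Tbx4 peaks. From the lowest to the highest of the 7 Tbx4 sites, over 696 kb, the numbers run over 43 peaks, of which 7, or 16.3%, are listed. This range starts and ends at listed sites, which raises the share. Another 70 numbers fall into the empty stretch below and 97 into the one above. With both empty stretches included, 7 of 210 numbers, or 3.33%, are listed, against 10.6% over the whole list. Both empty stretches run to the nearest listed site, so none of their numbers could be listed. This lowers the share, which is not comparable with that of the whole list. The Tbx4 gap on each side of the group is thus a gap in the selected sites. The 2 Hoxc10 sites carry consecutive numbers, and 2 unlisted Hoxc10 numbers lie between the outer Hoxc10 sites.

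Genes with the site counts most like those of Hand2 were looked for over all protein-coding genes, by the sum of the differences in Tbx4 sites, Hoxc10 sites and co-bound pairs. With 7, 2 and 0, Castor2, Eya1 and Wwox had the same counts, on domains of 1048, 1051 and 1275 kb. Castor2 encodes a protein of amino acid sensing, Eya1 a transcriptional co-activator and Wwox an oxidoreductase. Another 17 genes differed by 1, and the closest of these in domain length were Nt5c1b and Erc2, with 7 Tbx4 sites, 1 Hoxc10 site and 0 pairs each.

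Sites were counted in the same way for 71 listed genes in 6 groups. The list covers the Hedgehog pathway, genes known to act up or downstream of Shh in limb buds, and chromosomal neighbours of Shh. Leaving out the 4 genes above, 38 of 67 (56.7%) had a Tbx4 site and 28 of 67 (41.8%) a Hoxc10 site, against 17.2% and 6.83% of all protein-coding genes. A co-bound pair was in the domains of 15 of these 67, or 22.4%, against 2.66%. The chromosomal neighbours supply 4 of the 38, 2 of the 28 and 2 of the 15. Those last 2, Nom1 and Mnx1, hold the same pair. The listed genes had longer domains, with a median of 151 kb without the 4 members, against 67.3 kb for all genes, and the part of length in these counts was not tested. The list was also chosen with earlier results of these data known. It is therefore not independent of the sites, and the shares of the list and its groups are descriptions only. The median number of Tbx4 sites was 1 in the list and 0 over all genes, and that of Hoxc10 sites was 0 in both.

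Among the 8 genes of Hedgehog ligands and of the proteins that release them, Shh included, 3 had Tbx4 sites and 3 had Hoxc10 sites, or 37.5% for each factor, against 17.2% and 6.83% of all genes. Scube1, of a family of secreted proteins that help ligands leave the cell, had 3 Tbx4 sites, the highest scoring 55.65, and 1 Hoxc10 site of 23.58. Its relative Scube3 had 2 Tbx4 sites. Disp1, the membrane protein that releases the lipid-bearing ligand, had 2 Hoxc10 sites and 0 Tbx4 sites. Hhat, which attaches palmitate to the ligand, had 1 Tbx4 site, and Ihh, the ligand of growing cartilage, 1 Hoxc10 site.

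On the receiving side, 5 of 8 receptor and co-receptor genes (62.5%) had Tbx4 sites and 3 (37.5%) had Hoxc10 sites. Of all genes 17.2% and 6.83% did. The co-receptor Gas1 had the most, 8 Tbx4 and 4 Hoxc10 sites, with a co-bound pair 167 kb from the gene that scored 18.38 for Tbx4 and 38.93 for Hoxc10. The co-receptors Boc and Cdon had 5 and 2, and 1 and 1. The decoy receptor Hhip had 4 Tbx4 sites and the receptor Ptch1 had 2, with no Hoxc10 site at either. In the cell, 3 of 9 genes had sites, and these 3 had sites of both factors, or 33.3% for each factor, against the same shares of all genes. Gli2 and Gli3, the transcription factors that carry the signal, had 3 and 3, and 4 and 1, and their inhibitor Sufu had 2 and 1. A co-bound pair 8.32 kb outside Gli2 scored 20.91 for Tbx4 and 3.83 for Hoxc10, with summits 96 bp apart.

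**Figure D4:**
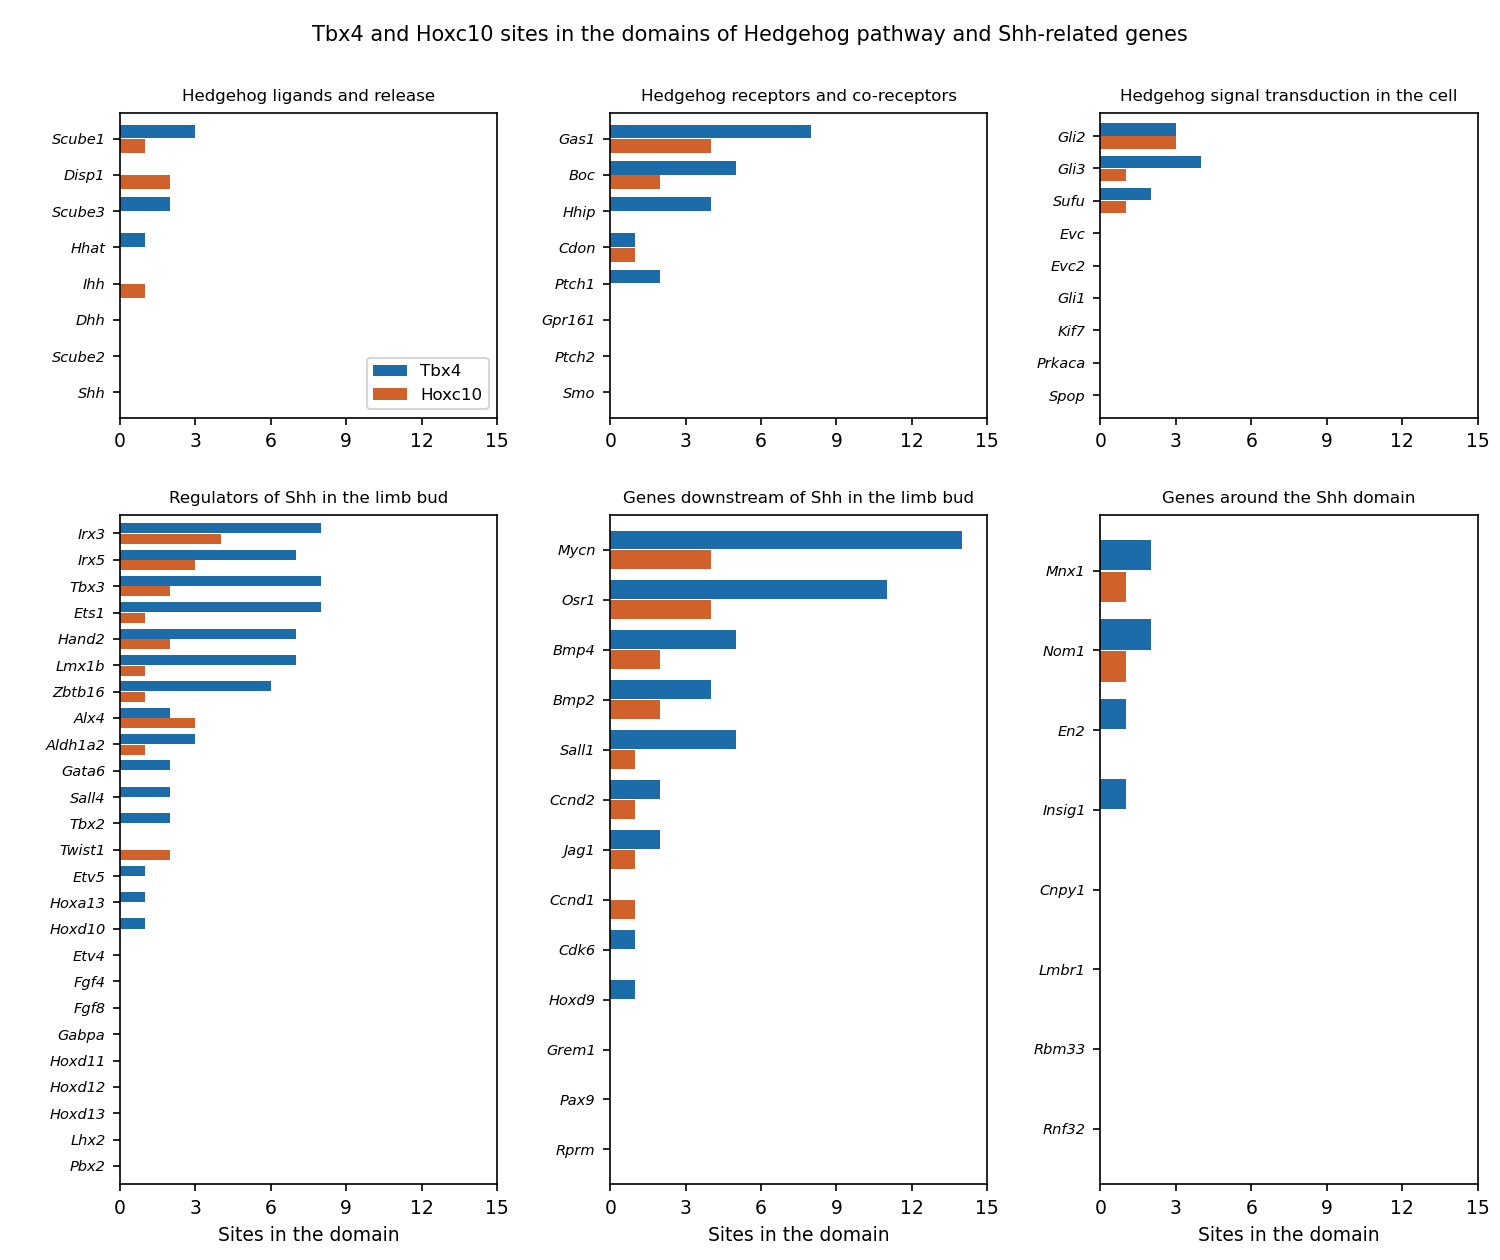
Number of Tbx4 sites (upper bar) and Hoxc10 sites (lower bar) in the domain of each listed gene, in 6 panels by role. Shh, Rnf32 and Lmbr1 have no bar, and Hand2, with 7 and 2, stands in the panel of regulators below Irx3, Irx5, Tbx3 and Ets1.

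Hand2 was not alone among the regulators of Shh. Of the 25 genes in that group 15 (60%) had Tbx4 sites and 10 (40%) had Hoxc10 sites, and 9 had neither. Of all genes 17.2%, 6.83% and 81% did. Irx3 and Irx5, homeobox genes of early hindlimb pattern, had 8 and 4, and 7 and 3, and share sites. Ets1, which encodes an ETS factor, had 8 and 1, with a co-bound pair inside the gene whose summits were 9 bp apart and scored 11.3 for Tbx4 and 3.26 for Hoxc10. Tbx3, a T-box repressor gene whose product acts at the bud margins, had 8 and 2, on a domain of 1031 kb, and like Hand2 no co-bound pair. At Irx3 a pair with summits 12 bp apart, 119 kb from the gene, scored 18.38 for Tbx4 and 5.69 for Hoxc10.

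Of 13 genes downstream of Shh 9 (69.2%) had Tbx4 sites and 8 (61.5%) had Hoxc10 sites, against 17.2% and 6.83% of all genes. Mycn, a proto-oncogene of proliferating limb mesenchyme, had 14 and 4, with 3 co-bound pairs. Osr1, a connective tissue factor, had 11 and 4. Bmp4, a growth factor of the bud, had 5 and 2. A pair 215 kb from Bmp4 scored 18.38 for Tbx4 and 5.05 for Hoxc10. Bmp2, a growth factor induced by Shh, had 4 and 2, and Sall1, a zinc finger gene, 5 and 1. The median domain of this group was 838 kb, the longest of the 6 groups. Among the 1216 genes with domains at least as long as that of Shh, 56.7% had a Tbx4 site and 38.4% a Hoxc10 site. Among the 8 genes around Shh, Nom1 and Mnx1 each had 2 Tbx4 sites and 1 Hoxc10 site, which are the same sites, and En2 and Insig1, a gene of sterol regulation, shared 1 Tbx4 site. Rnf32, Lmbr1, Rbm33 and Cnpy1 had 0 of each.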

How the data were processed

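ChIP-seq summit lists of 2 samples were used, from mouse hindlimb buds fixed with 1% formaldehyde and sheared by sonication, per the labels' protocols. The authors used Bowtie2 2.2.6, MACS2 2.1.1.20160309 and HOMER with build mm10, per the submitters' processing notes. The deposited score of each 1 bp summit is on a −log10 scale, as MACS2 writes it; whether it derives from a p-value or a q-value, how summits were selected, the control library and any pooling are likewise not given in the sources used. The Hoxc10 list may be limited to sites close to peaks of the Santa Cruz antibody, which its name hints at and no label states. Scores were ranked within a list and not compared between lists; they take 113 and 120 distinct values, so many are tied. Where depth is unknown, no interval was computed.

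Genes came from the RefSeq table of GRCm38.p6, which has gene ends; strand came from the promoter table. All 71 listed genes were matched, and 1 further gene of the list is not reported here. A domain is the gene and the ground to the next protein-coding gene on each side, at most 1 Mb, and coordinates are 1-based. Counting was done in Python 3.11.15 with pandas 2.3.3. On simulated, evenly spaced genes, 200 of 200 counts planted inside gene bodies were recovered. Counts over the ground outside genes, overlapping genes and the 1 Mb limit were not simulated, so the counts at Hand2 were not tested in this way. No statistical test was run, since each group is 1 sample. The members, gene lists and alternatives (score, domain and pairing distance) were chosen with earlier results of these data known. Named are the 4 members, the genes that bound them, the 4 genes with most sites in each role group with ties, up to 6 listed genes with co-bound pairs and 5 genes most like Hand2.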

Additional observations from a re-analysis of the deposited data

How the results depend on the processing

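Of 36 values under alternatives, 18 could only be 0, since they narrow an empty region or pair summits far apart, and say nothing about stability. Of the other 18, 6 stayed within 1.5 times the reported count and 12 did not. Around Shh, Rnf32 and Lmbr1 the wider ground, with 1 Mb to each side past the neighbouring genes, held 4 Tbx4 sites and 1 Hoxc10 site. At Hand2 the 7 Tbx4 sites became 3 with at most 100 kb outside the gene and 0 with 5 kb around the gene. The 2 Hoxc10 sites became 1 in the higher-scoring 50% of the list, 1 with a score of at least 5, 0 within 100 kb, 0 within 5 kb and 4 within 1 Mb past the neighbours. Fewer sites follow from narrower ground by construction. Of the 71 listed genes, 39 had a Tbx4 site and 21 within 5 kb, where 10.8% of all genes had one; for Hoxc10 the 29 became 17 within 100 kb and 10 within 5 kb, against 4.74% and 2.64% of all genes. No paired analysis was possible because each antibody has 1 sample. Read depth is unknown, and it limits what an empty stretch can show.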
